A study of Mus musculus with 32 samples.

Results

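The heat shock proteins and J-domain chaperones described here are 66 of the 55938 genes in the deposited table, 26 with Hsp symbols and 40 with Dnaj symbols. They are the protein-coding genes whose symbol starts with Hspa, Hspb, Hspd, Hspe, Hsph, Hsp90 or Dnaj and whose mean over all 32 libraries is at least 1 CPM, where CPM are counts scaled to library size. These prefixes begin 88 symbols, of which 14 are not protein-coding and 8 fall below 1 CPM. The last gene inside that limit is Dnajb3 at 1.15 CPM and the first outside is Hspb2 at 0.378 CPM. A few members carry the name without being chaperones: Hspb11 works in transport within cilia, Hspbp1 is a nucleotide exchange factor of Hsp70, and Hspbap1 is named for binding a small heat shock protein.

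All mice carried Aldh1l1-CreER, a Cre recombinase driven by an astrocyte promoter, together with Rpl22-HA, a ribosomal protein that bears an HA tag after recombination; in the sample labels the genotype is spelled Aldhl1l-CreER;Rpl22-HA. Trap libraries hold RNA pulled down from lumbar spinal cord homogenate with an anti-HA antibody and magnetic beads, and Input libraries hold RNA of whole homogenate. Mice of both sexes were uninjured or were studied 3, 5 or 7 weeks after a fracture, a model of complex regional pain syndrome. Each combination of sex and injury state had 3 Trap libraries and 1 Input library. No group lacked the 2 alleles. The sources used here do not give age, strain or tamoxifen dosing. They also do not say whether every library is from its own animal or whether animals were pooled, so a p-value reflects only how these libraries varied, which may be technical.

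Hsp70 proteins bind unfolded stretches of other proteins and release them in a cycle driven by ATP. J proteins (the Dnaj genes) deliver clients to Hsp70 and start that cycle, nucleotide exchange factors such as the Hsp110 proteins reset it, and Hsp90 takes over late folding of kinases and receptors. Small heat shock proteins hold misfolded proteins without ATP. Separate sets work in the cytosol, in the lumen of the endoplasmic reticulum (ER) and in mitochondria. Heat shock factors switch on the cytosolic set when cytosolic proteins misfold, and the unfolded protein response switches on the ER set.

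The ER set is shown first by promoter, because Hspa5, Hsp90b1 and Dnajc3 are the members that the comparisons below return to. RefSeq start sites of GRCm38.p6 gave windows from 250 bases before to 50 bases after the start for 55 of the 66 members. The ER stress response element, searched as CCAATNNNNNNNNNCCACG or its reverse complement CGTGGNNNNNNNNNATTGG, was found in 3 members, Dnajc3, Hsp90b1 and Hspa5. That is 5.45% of members with a window, against 0.137% of 27025 genes (37 genes). The element was chosen for the response that switches on the ER set, so these shares are a description with no test. Of the ER lumen members 7 had a window, and Dnajb9, Dnajb11, Dnajc1 and Dnajc10 did not hold the element. The stretches that hold it are given 5′ to 3′ on the gene's strand, with the matched letters in capitals, and without annotated exons except for a run of at most 30 bases where a match lies in one.
Hspa5 (chr2:34772020-34772048, plus strand): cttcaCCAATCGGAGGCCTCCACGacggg
Hsp90b1 (chr10:86705510-86705694, minus strand): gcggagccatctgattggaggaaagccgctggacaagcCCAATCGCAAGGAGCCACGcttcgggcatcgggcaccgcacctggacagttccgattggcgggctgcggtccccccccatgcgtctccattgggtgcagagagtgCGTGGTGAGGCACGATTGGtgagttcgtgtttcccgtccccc
Dnajc3 (chr14:118937737-118937931, plus strand): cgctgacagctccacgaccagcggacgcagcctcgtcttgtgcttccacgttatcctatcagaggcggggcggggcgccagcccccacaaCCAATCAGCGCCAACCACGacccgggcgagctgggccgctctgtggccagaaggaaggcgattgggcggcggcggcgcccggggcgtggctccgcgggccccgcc
Hsp90b1 has 2 matches, 1 in each orientation, and the other genes have 1. A match is a description of these letters and not a measured binding site.

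The heat shock element, searched as 3 alternating units (GAANNTTCNNGAA or TTCNNGAANNTTC), was found in 4 members, Dnajb6, Hspd1, Hspe1 and Hsph1, or 7.27% of those with a window against 0.662% of all genes (179 genes). Matches to the shorter paired form, GAANNTTC or TTCNNGAA, which overlap these, were found in 14 members (25.5%) against 16.97% of all genes. Hspa8, Hsp90aa1 and Hsp90ab1 had no window and were not searched, and Hspa1a and Hspa1b matched only the paired form. The search took exact letters, so a missing match does not show that a gene lacks a heat shock element with imperfect units. As for the ER element, the shares are a description with no test. The longer matches are given in the same way, because they fall in a mitochondrial pair that shares 1 promoter and in the cytosolic Hsp110 gene Hsph1.
Hspe1 (chr1:55088053-55088082, plus strand): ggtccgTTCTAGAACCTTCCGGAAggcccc
Dnajb6 (chr5:29735844-29735872, plus strand): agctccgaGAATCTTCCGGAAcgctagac
Hsph1 (chr5:149636280-149636308, minus strand): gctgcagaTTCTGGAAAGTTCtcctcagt
Hspd1 is read from the opposite strand of the Hspe1 promoter, so both genes share the same match. The Hsph1 match lies after the start site, from base 15 to base 27 counted with the first transcribed base as 0.

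Library totals ranged from 17124092 to 23189285 estimated counts, so 1 CPM rests on 17.1 to 23.2 counts. Astrocyte markers were higher in Trap in 10 of 10 cases (summed level 48376 to 63988 CPM in Trap, 6976 to 7523 CPM in Input), and neuron markers were lower in 10 of 10 (298 to 934 CPM against 6693 to 7892 CPM). Oligodendrocyte markers were lower in 8 of 8 but summed to 2267 to 5536 CPM in Trap against 14928 to 17680 CPM in Input, so Trap libraries hold RNA of other cells. Microglia (8 of 8) and endothelial (6 of 6) markers were also lower, to 52.6 to 76.2 CPM and 4.09 to 16.8 CPM in Trap. Other lists were mixed: mural and meningeal markers were higher in 2 and lower in 4 of 6 (summed 39.5 to 77.9 CPM in Trap, 45.4 to 64.2 CPM in Input), ependymal markers higher in 1 and lower in 3 of 5, Schwann cell markers higher in 1 and lower in 1 of 4, and of 3 markers of oligodendrocyte precursors Olig1 was higher (657.5 to 1089 CPM against 186 to 269 CPM) and Pdgfra and Cspg4 lower. Of the astrocyte, neuron, oligodendrocyte, microglia and endothelial lists, the microglial gene Aif1 was the sole marker at 0 in any Trap library (1 library). Haemoglobin and Alas2, markers of blood, were higher in Trap in 5 of 5 (361 to 2501 CPM against 188 to 315 CPM). The part of these other cells in the results below was not tested, and in such bulk RNA fewer cells of a type and less RNA per cell cannot be told apart. Female replicate 3 at 3 weeks and male replicate 2 at 7 weeks stood apart from the other Trap libraries, and the fracture comparisons were also run without them.

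Levels compared between genes are CPM per kilobase of exon. In Trap the most abundant members were the constitutive cytosolic chaperones Hsp90ab1 at 400.2 and Hspa8 at 357 CPM per kilobase. They were followed by the ER Hsp90, Hsp90b1, at 149, cytosolic Hsp90aa1 at 120, mitochondrial Hspa9 at 118 and the ER Hsp70, Hspa5, at 103 CPM per kilobase. In Input the order of the leading genes differed: Hspa8 stood at 432, Hsp90ab1 at 412 and Hsp90aa1 at 200.1 CPM per kilobase, ahead of Hspd1 at 55.5, Dnajc5 at 55.3 and Hsp90b1 at 54.8. The stress-inducible Hsp70 genes were among the lowest members in Trap, Hspa1a at 0.864 (rank 60 of 66) and Hspa1b at 0.730 (rank 62). The least variable members over the 24 Trap libraries were Dnaja2 (coefficient of variation 4.86%) and Dnaja3 (5.12%), and among the most variable were Hspb1 (30.8%) and the low-count Hspa1b (40.1%).

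Whether chaperone RNA on astrocyte ribosomes differs from that of the whole cord was asked by comparing 24 Trap with 8 Input libraries, adjusting for sex and injury state. Chaperones of the ER lumen and of mitochondria were mostly higher in Trap, and J proteins of vesicles and most cytosolic Hsp70 genes were lower. With edgeR's quasi-likelihood test and Benjamini-Hochberg adjustment over 17101 genes, an adjusted p under 0.05 being a call, 35 members were higher and 23 lower. This has to be read against 87.6% of all genes tested being called (43.3% higher and 44.3% lower), so the members' share of calls is near the background. The median member difference was 0.23 log2 against -0.01 over all genes. Among the called members 14 were more than 2-fold higher and 11 more than 2-fold lower. In 26 members every Trap library lay above every Input library and in 14 every one lay below, beside 26.4% and 27.2% of all genes.

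**Figure D1:**
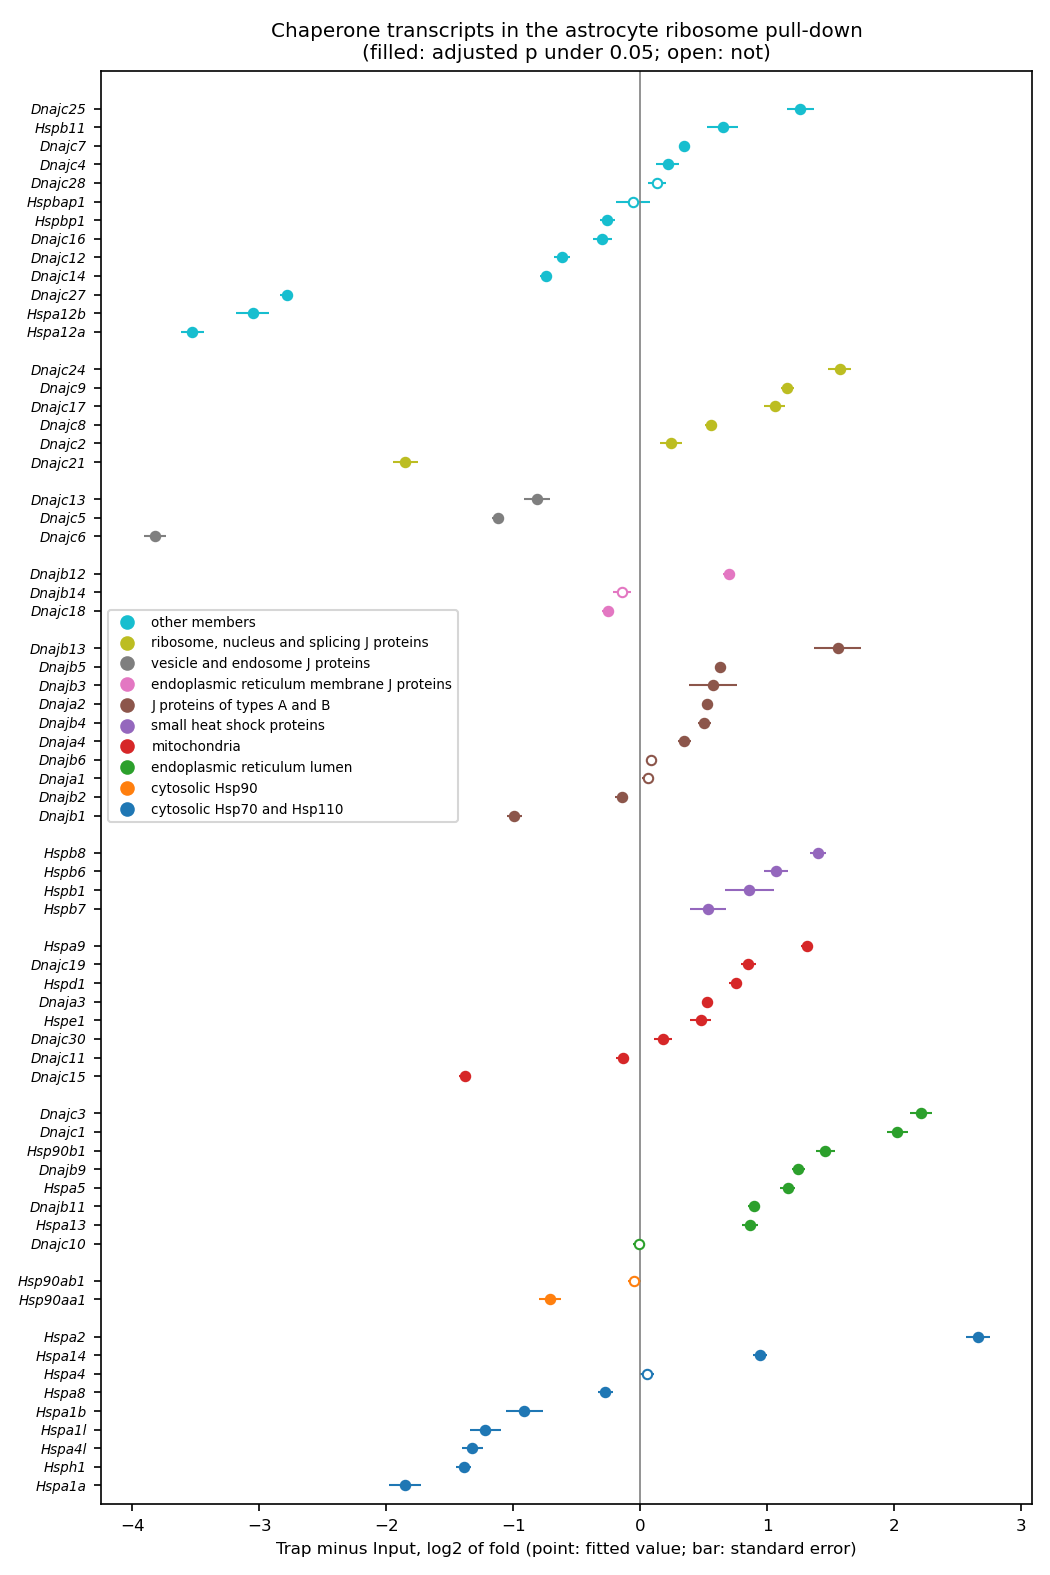
Log2 difference between Trap and Input for each of the 66 members, grouped by role, as the fitted value ± its standard error; filled symbols have an adjusted p under 0.05. The ER lumen members except Dnajc10 (-0.01) and the small heat shock proteins lie to the right of 0 (medians 1.20 and 0.96) and the vesicle J proteins to the left (median -1.12).

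In the ER lumen 7 of 8 members were higher in Trap and none lower, with a median difference of 1.20 log2. Dnajc3 (ENSMUSG00000022136.8, chr14:118937976-118981697, plus strand, GRCm38), a J protein that binds unfolded clients for Hspa5, ranged from 210 to 328 CPM (median 260) in Trap and from 37.1 to 77.3 CPM (median 55.4) in Input. No Trap library came near the Input range. The difference was 2.21 ± 0.087 log2 (SE), a 4.63-fold higher level, with an adjusted p of 6.6e-22 by edgeR's quasi-likelihood test with Benjamini-Hochberg adjustment, as for all such values below. Dnajc1, an ER membrane protein whose J domain faces the lumen, ranged from 34.8 to 52.9 CPM (median 47.0) in Trap and from 8.32 to 15.8 CPM (median 11.2) in Input, a difference of 2.02 ± 0.082.

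Hsp90b1 (ENSMUSG00000020048.13, chr10:86690209-86705509, minus strand), the Hsp90 of the ER, ranged from 471 to 704 CPM (median 613) in Trap and from 159 to 278 CPM (median 227) in Input. The difference was 1.46 ± 0.074 log2 (2.74-fold, adjusted p 4.9e-19). Hspa5 (ENSMUSG00000026864.13, chr2:34771970-34777547, plus strand), the ER Hsp70 also known as BiP, ranged from 332 to 553 CPM (median 443) in Trap and from 177 to 228 CPM (median 190) in Input. The difference was 1.16 ± 0.058 log2 (2.23-fold, adjusted p 3.6e-19), and again no library overlapped. Dnajb9 (1.24 log2), Dnajb11 (0.90) and Hspa13 (0.86) were called higher as well, and Dnajc10, a J protein that reduces disulfide bonds, was not called (-0.01). Of the exon bases of Hsp90b1, 10.3% lie opposite a transcribed pseudogene, and the sources do not say whether counting used strand. Among 23 other genes of ER folding and the unfolded protein response, 13 were higher and 6 lower, led by the lectin chaperone Canx (1.64), Derl2 (1.14) and the disulfide isomerase P4hb (1.11).

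Among 8 mitochondrial members 6 were higher and 2 lower in Trap, with a median of 0.50 log2. Hspa9, the mitochondrial Hsp70 that pulls proteins into the matrix, ranged from 435 to 572 CPM (median 518) in Trap and from 195 to 224 CPM (median 202) in Input, a difference of 1.31 ± 0.046 log2 (adjusted p 1.6e-23). The chaperonin Hspd1 (0.75 ± 0.048) and its lid Hspe1 (0.47), which share the promoter shown above, were both higher. Dnajc19 (0.85) of the import motor was higher too, while Dnajc15, its close relative, was lower (-1.38 ± 0.048), with 31.0 to 39.9 CPM in Trap and 73.2 to 98.7 CPM in Input. Of 10 other mitochondrial quality control genes 9 were higher and 1 lower, led by Clpx (1.80), the mitochondrial Hsp90 Trap1 (1.37) and the protease Lonp1 (1.17).

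All 4 small heat shock members were higher in Trap. Hspb8, which works with Bag3 in selective autophagy, ranged from 79.6 to 119 CPM in Trap and from 33.0 to 42.4 CPM in Input (1.40 ± 0.066 log2), without overlap. Hspb6 ranged from 13.015 to 29.97 CPM (median 17.4) and from 7.39 to 9.99 CPM (median 8.53), a difference of 1.07 ± 0.097. Hspb1, an actin-protecting protein prominent in reactive glia, was 0.86 ± 0.19 log2 higher (adjusted p 1.9e-04), but its Trap libraries reached from 22.9 to 93.0 CPM and overlapped the Input range of 24.1 to 36.3 CPM. Hspb7 was 0.53 higher. The alpha crystallin Cryab (0.17) and the collagen chaperone Serpinh1 (3.05), which are not members, were also higher.

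The cytosolic Hsp70 and Hsp110 genes divided, with 2 higher, 6 lower and 1 not called of 9 (median -0.91 log2). Hspa2 (ENSMUSG00000059970.7, chr12:76404176-76406938, plus strand), a Hsp70 best known from testis, ranged from 77.1 to 157 CPM (median 113) in Trap and from 13.3 to 19.7 CPM (median 18.5) in Input. This was the member with the highest difference, 2.66 ± 0.093 log2 or 6.31-fold (adjusted p 2.2e-23). Hspa14, a ribosome-bound Hsp70, was 0.94 higher.

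The stress-inducible Hspa1a (ENSMUSG00000091971.3, chr17:34969190-34972156, minus strand) ranged from 0.959 to 3.38 CPM (median 2.57) in Trap and from 7.90 to 12.7 CPM (median 8.88) in Input, a difference of -1.86 ± 0.125 log2 (adjusted p 1.6e-15). Hspa1b was lower by the same test (-0.91). The pair are near-identical copies, so reads may be split wrongly between them, and their sum ranged from 3.08 to 6.72 CPM in Trap and from 11.3 to 18.3 CPM in Input, also without overlap. At this level counting error is large.

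Hsph1 (ENSMUSG00000029657.15, chr5:149614287-149636376, minus strand), an Hsp110 exchange factor, ranged from 64.5 to 126 CPM (median 86.8) in Trap and from 212 to 267 CPM (median 223) in Input, a difference of -1.39 ± 0.060 log2 (adjusted p 5.4e-21). Hspa4l, another Hsp110, was lower too (-1.32 ± 0.084), while the related Hspa4 was not called (0.05). Hspa8, the constitutive Hsp70, was called lower (-0.28 ± 0.059 log2, adjusted p 7.2e-05), but its ranges overlapped, 1207 to 1990 CPM in Trap and 1675 to 2061 CPM in Input. Hspa1l was lower too (-1.22), but 71.9% of its exon bases lie opposite an antisense gene, so its counts are uncertain. Among 13 Hsp70 exchange factors and co-chaperones outside the members 4 were higher, led by the ER exchange factor Sil1 (1.77), and 7 were lower, among them Stip1 (-0.88), which links Hsp70 to Hsp90, and Bag4 (-0.74).

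The cytosolic Hsp90 pair was split. Hsp90aa1 (ENSMUSG00000021270.13, chr12:110690605-110702728, minus strand), the inducible form, had a mean of 472 ± 34.0 CPM (SD, n = 24) in Trap and 786 ± 238 CPM (SD, n = 8) in Input, a difference of -0.71 ± 0.085 log2 (adjusted p 5.3e-09). Its Input libraries spread from 444 to 1102 CPM, and they divided by sex as described below. The constitutive Hsp90ab1 (ENSMUSG00000023944.14, chr17:45567775-45573271, minus strand) had 1200.1 ± 114 CPM (n = 24) and 1235 ± 65.7 CPM (n = 8), a difference of -0.05 ± 0.049 log2 that was not called (adjusted p 0.36). Of 17 Hsp90 co-chaperones 7 were higher, among them Ptges3 (0.67), and 8 lower, among them Tomm70a (-1.27). Of 6 heat shock factors and their regulators 2 were higher and 3 lower, with Hsf4 at -3.80 and Hsbp1 at 0.92, and Hsf1, the main heat shock factor, was not called (-0.02).

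The J proteins of vesicles and endosomes were all lower in Trap. Dnajc6 (ENSMUSG00000028528.17, chr4:101496648-101642799, plus strand), the neuronal auxilin that uncoats clathrin vesicles with Hspa8, ranged from 7.21 to 18.1 CPM (median 9.88) in Trap and from 126 to 164 CPM (median 147) in Input. The difference of -3.82 ± 0.089 log2 was the lowest of all members (adjusted p 3.6e-27). Dnajc5, the cysteine string protein of synaptic vesicles, ranged from 144 to 193 CPM and from 355 to 432 CPM, a difference of -1.12 ± 0.044 (adjusted p 3.5e-22). Dnajc13 of endosomes was at -0.82. The neuron markers given above had a median difference of -4.10 log2, near that of Dnajc6 but far below those of Dnajc5 and Dnajc13. Their part in these values was not tested.

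Among the 13 members placed in none of the role groups, whatever their location, 4 were higher and 7 lower. Hspa12a, an atypical Hsp70 with high levels in brain, ranged from 13.6 to 30.5 CPM (median 20.9) in Trap and from 218 to 273 CPM (median 246) in Input, a difference of -3.53 ± 0.088 log2 (adjusted p 4.2e-26). Its relative Hspa12b, known from endothelium, was lower as well (-3.05 ± 0.131), with 0.303 to 1.65 CPM against 5.74 to 9.95 CPM. Endothelial markers had a median of -2.80. Dnajc27, which joins a J domain to a Ras-like GTPase, ranged from 26.8 to 40.7 CPM (median 33.1) in Trap and from 206 to 249 CPM (median 221) in Input, a difference of -2.78 ± 0.051 (adjusted p 5.5e-31).

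J proteins of types A and B, the general partners of Hsp70, were higher in 6 and lower in 2 of 10. Dnajb1, the type B partner induced with Hspa1a, was lower at 22.5 to 31.4 CPM in Trap against 42.8 to 62.9 CPM in Input (-0.99 ± 0.060 log2), and Dnajb2 was lower at -0.15. Dnajb13, a sperm and cilium J protein, was higher at 1.15 to 3.62 CPM against 0.418 to 0.890 CPM (1.55 ± 0.186), though 11.2% of its exon bases lie opposite Ucp2. Dnajb5 (0.63), Dnaja2 (0.52) and Dnajb4 (0.50) were higher, and Dnajb6 (0.08) was not called. Dnaja4 was higher (0.34), but 44.1% of its exon bases lie opposite Wdr61. Dnaja1 was not called over both sexes (0.06), with opposite calls within them given below.

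Of the 6 J proteins of the ribosome, nucleus and splicing 5 were higher. Dnajc24, which acts in diphthamide synthesis on elongation factor 2, ranged from 15.4 to 28.5 CPM (median 17.7) in Trap and from 4.99 to 8.81 CPM (median 5.87) in Input, a difference of 1.57 ± 0.090 log2. Dnajc9, a histone chaperone, was 1.15 higher and Dnajc2, the J protein of the ribosome-associated complex, 0.24 higher. Dnajc21, which works in maturation of the large ribosomal subunit, was lower at 6.94 to 12.7 CPM (median 8.51) against 20.3 to 42.5 CPM (median 34.5), a difference of -1.85 ± 0.097. Of the 3 members grouped as J proteins of the ER membrane Dnajb12 was higher (0.70), Dnajc18 lower (-0.25) and Dnajb14 not called (-0.14).

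Whether fracture changed these genes on astrocyte ribosomes was asked in the 24 Trap libraries, 6 per injury state, with the sexes averaged. At 3 weeks no member was called by edgeR's quasi-likelihood test with Benjamini-Hochberg adjustment over 15380 genes, beside 17 genes (0.111%) called in all. DESeq2 called none of the members either. At an unadjusted p under 0.05 there were 1 member higher and 10 lower, 16.7% of the members, beside 638 genes higher and 692 lower, 8.65% of all. The fitted difference was negative in 40 of 66 members (60.6%) and in 49.2% of all genes, with medians of -0.03 and 0.00 log2. The 10 were Hspa5, Hsp90b1 and Dnajc3 of the ER, the cytosolic Hsph1, Hspa4l, Hspa2 and Hspa8, Dnaja1, Hspb6 and Dnajc28, and the 1 with a positive difference was Hspbp1. These members were found by the same values, so their list gives no further support.

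**Figure D2:**
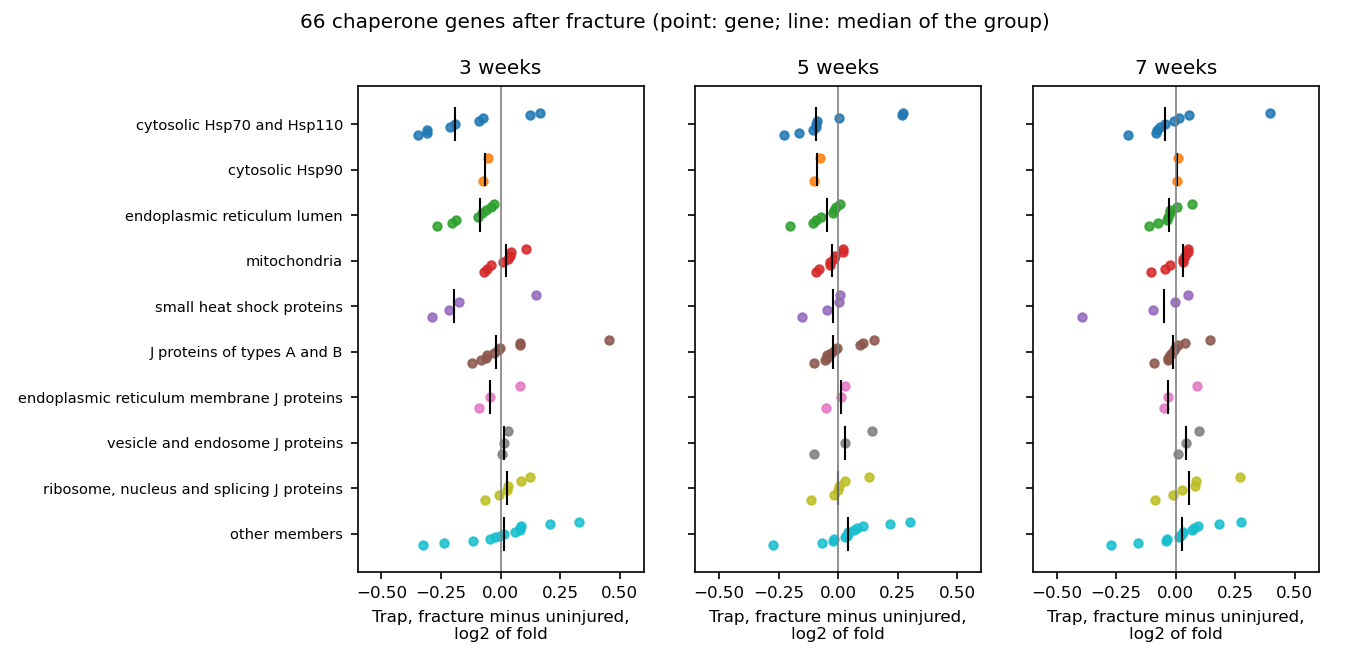
Log2 difference of each of the 66 members from uninjured in Trap libraries at 3, 5 and 7 weeks, grouped by role; a point is 1 gene and a line the median of its group. At 3 weeks all 8 ER lumen members lie below 0 (median -0.09), and the cytosolic Hsp70 and Hsp110 median is -0.19.

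Hspa5 in Trap ranged from 445 to 553 CPM (median 465) in uninjured mice and from 340 to 454 CPM (median 390) at 3 weeks, with means of 483 ± 41.9 and 400.4 ± 45.0 CPM (SD, n = 6 each). The groups overlapped, as 2 of the libraries at 3 weeks stood just above the lowest uninjured one. The difference was -0.27 ± 0.080 log2, with an adjusted p of 0.201 by edgeR's quasi-likelihood test. At 5 weeks the mean was 419 ± 49.3 CPM and at 7 weeks 447 ± 30.6 CPM (n = 6 each), with differences of -0.20 and -0.11.

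Hsp90b1 ranged from 612 to 692 CPM (median 628) in uninjured mice and from 471 to 632 CPM (median 566) at 3 weeks, a difference of -0.21 ± 0.079 log2 (adjusted p 0.412). Its means at 5 and 7 weeks were 593 ± 58.2 and 624 ± 60.7 CPM (n = 6 each). Dnajc3 ranged from 246 to 328 CPM (median 269) and from 210 to 280 CPM (median 236), a difference of -0.19 ± 0.080 (adjusted p 0.492). Both overlapped between the groups. Over the 24 Trap libraries, after the mean of each sex and state was removed, Hspa5 correlated with Hsp90b1 at r = 0.85, with Dnajc3 at 0.61 and with cytosolic Hspa8 at 0.73, while Dnajc3 and Dnajb11 gave -0.00. These correlations are descriptions, and the genes compared share library and depth. Of the 23 other genes of ER folding and the unfolded protein response none was called at 3 weeks and 18 had a negative difference, with the ER exchange factor Hyou1 at -0.23 ± 0.083 (adjusted p 0.361).

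**Figure D3:**
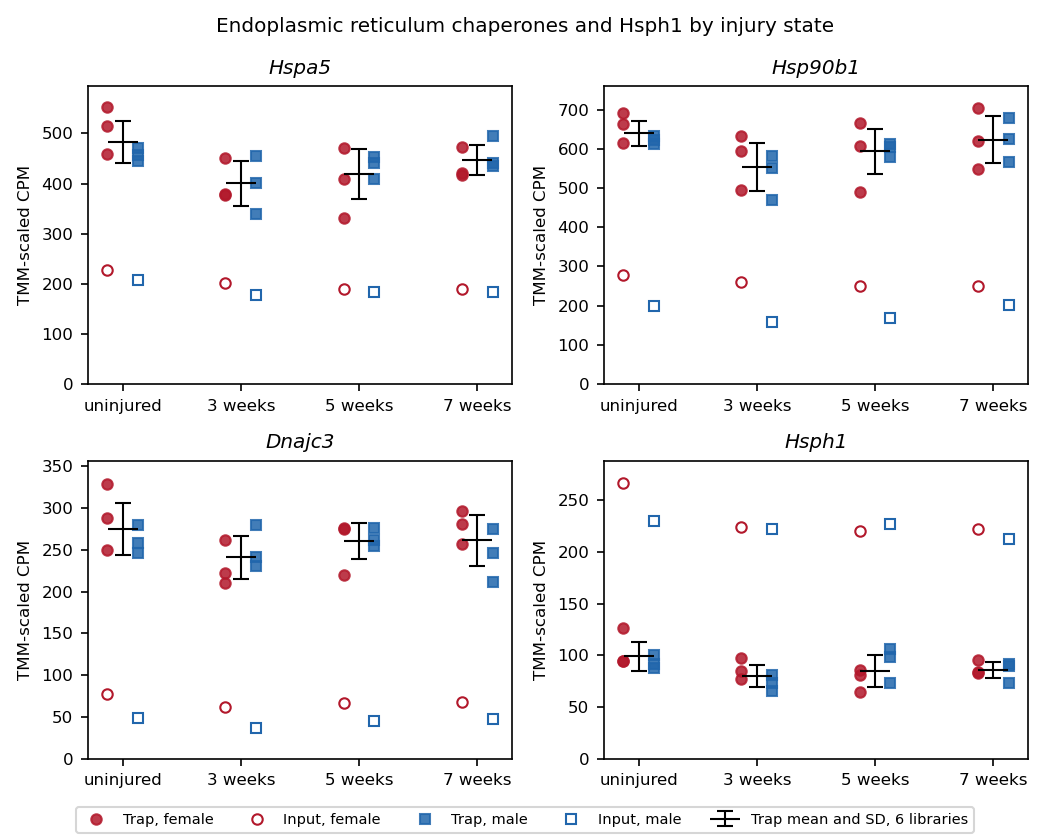
CPM of Hspa5, Hsp90b1, Dnajc3 and Hsph1 by injury state, with Trap libraries filled, Input libraries open, females as circles and males as squares, and a bar for the mean and SD of the 6 Trap libraries. Trap values at 3 weeks are centred lower than in uninjured mice (mean Hspa5 400.4 against 483 CPM), but the libraries overlap in each gene.

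In the cytosolic Hsp70 and Hsp110 group 7 of 9 differences at 3 weeks were negative. Hsph1 ranged from 87.8 to 126 CPM (median 94.5) in uninjured mice and from 65.5 to 97.0 CPM (median 79.3) at 3 weeks, a difference of -0.31 ± 0.098 log2 (adjusted p 0.241). Hspa4l ranged from 77.8 to 97.3 CPM and from 73.2 to 85.5 CPM, a difference of -0.21 ± 0.076 (adjusted p 0.350). Hspa2 ranged from 105 to 157 CPM and from 77.1 to 121 CPM, a difference of -0.31 ± 0.113 (adjusted p 0.372). The 2 groups overlapped in all 3 genes. Hspbp1, the exchange factor, had a positive difference of 0.21 ± 0.079 (adjusted p 0.405).

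Cell type markers were compared at 3 weeks in the same way. Gja1, which encodes an astrocyte gap junction protein, was called lower in Trap (-0.33 ± 0.064 log2, adjusted p 0.0266), as 1 of 10 astrocyte markers, of which 7 were negative (median -0.09). Summed astrocyte markers ranged from 56872 to 63988 CPM in uninjured mice and from 48376 to 63183 CPM at 3 weeks. Oligodendrocyte markers were negative in 7 of 8 (summed 2267 to 5147 and 2334 to 4037 CPM), blood markers in 5 of 5 (850.3 to 2501 and 361 to 1795 CPM), and endothelial markers positive in 5 of 6 (4.95 to 7.77 and 4.09 to 9.86 CPM), none of them called. Their part in the members' values was not tested.

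At 5 weeks no gene of 15380 (0%) was called by edgeR's quasi-likelihood test, 39 of 66 members had a negative difference (50.8% of all genes), and 3 members, all lower, passed an unadjusted p under 0.05 (2.76% of all genes). These were Dnajc28 (-0.27 ± 0.10 log2), Hspa5 (-0.20 ± 0.080) and Hsph1 (-0.23 ± 0.098). At 7 weeks again no gene (0%) was called, 33 members were negative and 33 positive, and the 2 members at an unadjusted p under 0.05 (2.85% of all genes) were Dnajc28 (-0.27) and Dnajc17 (0.27 ± 0.11). Without male replicate 2 at 7 weeks Dnajc17 was at 0.1305. Dnajc28 averaged 11.6 ± 1.36 CPM in uninjured mice and 9.89 ± 0.869, 9.62 ± 1.00 and 9.68 ± 1.30 CPM at 3, 5 and 7 weeks (SD, n = 6 each). DESeq2 called no member at these times. All 3 times were compared with the same uninjured libraries, so their differences are not independent of each other. In no member did the 6 libraries of a time lie wholly above or below the uninjured ones, beside 0.819%, 0.176% and 0.13% of all genes at 3, 5 and 7 weeks.

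Between times, no member was called at 5 against 3 weeks (2 genes in all, 0.013%) or at 7 against 3 weeks (3 genes, 0.0195%) by edgeR or DESeq2. At an unadjusted p under 0.05 there were 4 and 5 members, beside 5.89% and 7.93% of all genes. The smallest p at 5 against 3 weeks belonged to Hspbp1 (-0.28 ± 0.079 log2, adjusted p 0.417 by edgeR). At 7 against 3 weeks 46 of 66 differences were positive (8065 of 15380 over all genes), among them Hspa4l and Hsp90b1 (0.17 each), and Hspbp1 was at -0.24. Both comparisons use the same 3-week libraries that were set against uninjured mice above, so their signs are not independent of those differences.

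Within females no member was called at 3 weeks (6 genes in all, 0.039%), and 8 passed an unadjusted p under 0.05 (8.48% of all genes). Hspa5 differed by -0.33 ± 0.113 log2 (adjusted p 0.343 by edgeR), Dnajc3 by -0.31 and Hspa2 by -0.42. Within males no gene was called (0%), and 1 member, Hsph1, passed the unadjusted threshold (3.08% of all genes). Hsph1 differed by -0.34 ± 0.139, Hsp90b1 by -0.22 and Hspa5 by -0.20. Whether fracture acted differently in males and females was tested directly, and no gene passed at 3, 5 or 7 weeks (0% each) by edgeR; at an unadjusted p under 0.05 there were 2, 2 and 1 members (2.59%, 3.04% and 1.97% of all genes). These values do not show that the sexes differ. DESeq2 called no member within a sex or between the sexes. Uninjured males against uninjured females gave 6 genes (0.039%) and no member, with Hspa1b at -0.90 ± 0.37 and Dnajb2 at 0.20.

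Of the 3 panel genes among small heat shock proteins, Hspb1 varied most between Trap libraries, and in males the variation followed the replicate number. Male replicate 2 libraries, which the file headers name as a set of their own, had 53.6, 87.2, 71.6 and 93.0 CPM in uninjured mice and at 3, 5 and 7 weeks. The 8 other male libraries, whose headers also carry set names, ranged from 22.9 to 50.9 CPM, so replicate 2 did not overlap them. How many of all genes separate in the same way was not counted. The split is therefore a description and cannot be read as a trait of Hspb1. In females the 12 libraries ranged from 43.3 to 77.1 CPM with the replicates interleaved. Hspb6 was highest in 2 male replicate 2 libraries (29.97 and 24.1 CPM), and Hspb8 stayed between 79.6 and 119 CPM in all 24.

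**Figure D4:**
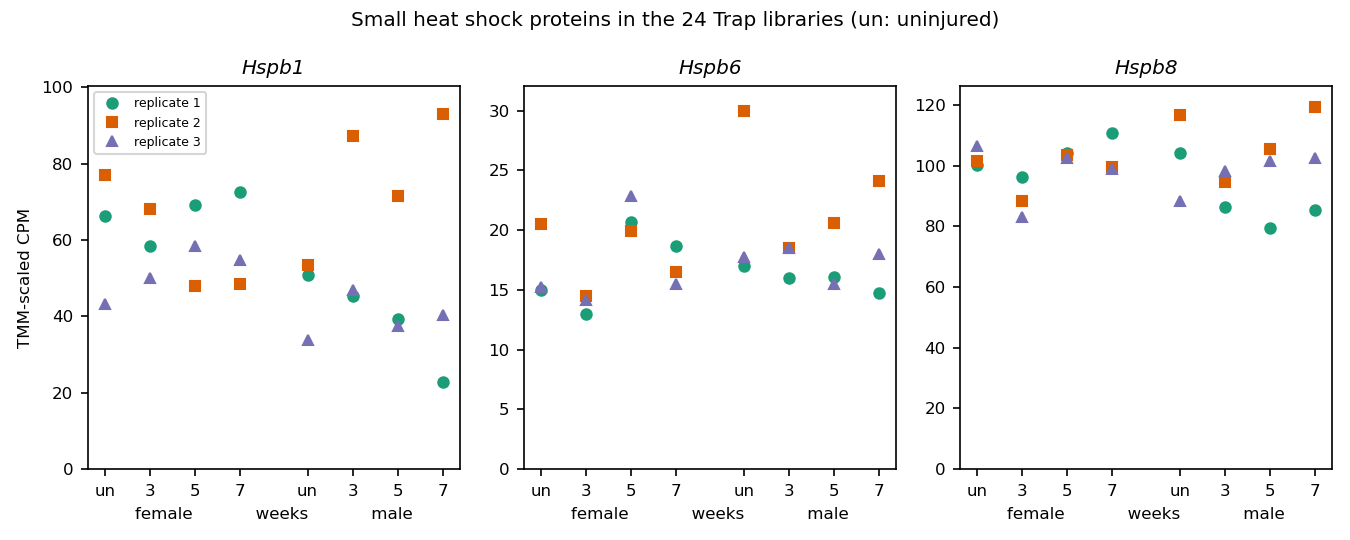
CPM of Hspb1, Hspb6 and Hspb8 in each of the 24 Trap libraries by sex and injury state, with the symbol giving the replicate number. For Hspb1 the male replicate 2 libraries lie at 53.6 to 93.0 CPM and the other male libraries at 22.9 to 50.9 CPM.

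The genes most like Hspb1 over the 24 Trap libraries, after the mean of each sex and state was removed, were Nxn (r = 0.88), Tspo (0.87), Psmc5 (0.86), Nfu1 (0.86) and Ift57 (0.85) among 8936 genes. The same measure for Hspa1a gave Lair1, Mphosph6 and Trmt1 (0.73 each), Brix1 and Cavin1 (0.72 each), at the low counts of that gene. These are the highest of many values and a description only. The replicate set was not removed, so the difference of Hspb1 between male sets given above enters its r values. How far that difference sets these r values was not tested.

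The 8 Input libraries, with 1 per sex and state, were compared in a fit of injury state plus sex (3 residual degrees of freedom). At 3 weeks 1 member, Dnajc3, was called by edgeR's quasi-likelihood test, of 182 genes called among 16804 (1.08%; 0.649% lower). Dnajc3 stood at 77.3 CPM in the uninjured and 62.2 CPM in the 3-week female library, and at 48.7 and 37.1 CPM in the male ones. It fell by 0.36 on the log2 scale (SE 0.076, adjusted p 0.0266). At 5 and 7 weeks it stood at 66.2 and 67.7 CPM in females and 45.5 and 47.5 CPM in males. This call rests on few libraries: the adjusted p was 0.364 without the female uninjured, 0.0686 without the male uninjured and 0.316 without the male 3-week library.

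Hspa5 in Input stood at 228 and 202 CPM in uninjured and 3-week females and at 209 and 177 CPM in males, a difference of -0.22 ± 0.057 log2 that edgeR did not call (adjusted p 0.0764) and DESeq2 did (-0.23, adjusted p 0.0431). Both sexes were lower at 3 weeks. All 8 ER lumen members (median -0.20) and all 9 cytosolic Hsp70 and Hsp110 members had negative differences, as did 46 of 66 members and 51.7% of all genes. At an unadjusted p under 0.05 there were 14 members, 1 higher and 13 lower, beside 13.9% of all genes (903 higher, 1441 lower). Called among partner genes were Cdc37l1, an Hsp90 co-chaperone (-0.36, adjusted p 0.0054), Cryab (-0.28, adjusted p 0.0266) and the stress factor Atf3 (2.29, adjusted p 0.0043). The astrocyte markers Gja1 (-0.29), Glul (-0.31) and S100b (-0.24) were called lower in the same comparison and the microglial C1qb higher (0.36), and their part was not tested. No member was called by edgeR or DESeq2 at 5 weeks (18 genes, 0.107%, by edgeR) or 7 weeks (36 genes, 0.214%), where 7 and 5 members, all lower, passed an unadjusted p under 0.05 beside 8.50% and 5.87% of all genes (667 higher and 761 lower at 5 weeks, 540 and 447 at 7 weeks). Hspa5 was at -0.23 ± 0.058 and -0.21 (adjusted p 0.242 and 0.275 by edgeR).

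Because Hsp90aa1 divided the Input libraries, males and females were compared there in a comparison added after these values were seen. The file headers of all 4 male Input libraries carry a set name, which those of the 4 female ones lack, so sex and set cannot be told apart. Of 16804 genes 7761 were called (46.2%; 22.9% higher and 23.3% lower), and of the members 13 were higher and 25 lower in males. In 16 members every male library lay above every female one and in 19 every one lay below, beside 23.5% and 18.3% of all genes (41.8% together). Hsp90aa1, whose values prompted the comparison, is counted among the 25 and among the 19, where it gives no support. Neuron markers were called higher in 1 and lower in 6 of 10, oligodendrocyte markers higher in 4 and lower in 1 of 8, and astrocyte markers higher in 2 and lower in 5 of 10. Their part was not tested.

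Hsp90aa1 had 1102, 955, 950 and 973 CPM in the female Input libraries (uninjured, 3, 5 and 7 weeks) and 640, 444, 545 and 683 CPM in the male ones. These levels prompted the comparison, so the fitted difference of -0.85 ± 0.119 log2 is a description with no test. In the 24 Trap libraries of both sexes it lay between 404 and 562 CPM. Hspa4l had 301, 254, 276 and 276 CPM in females and 167, 129, 134 and 189 CPM in males, also without overlap (-0.90 ± 0.090). In the ER lumen 7 of 8 members were lower in males, among them Dnajc3 (-0.67), Hsp90b1 (-0.57) and Hspa13 (-0.55). Hspbp1 (0.37), Hspb1 (0.31) and Dnajb1 (0.29) were higher.

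**Figure D5:**
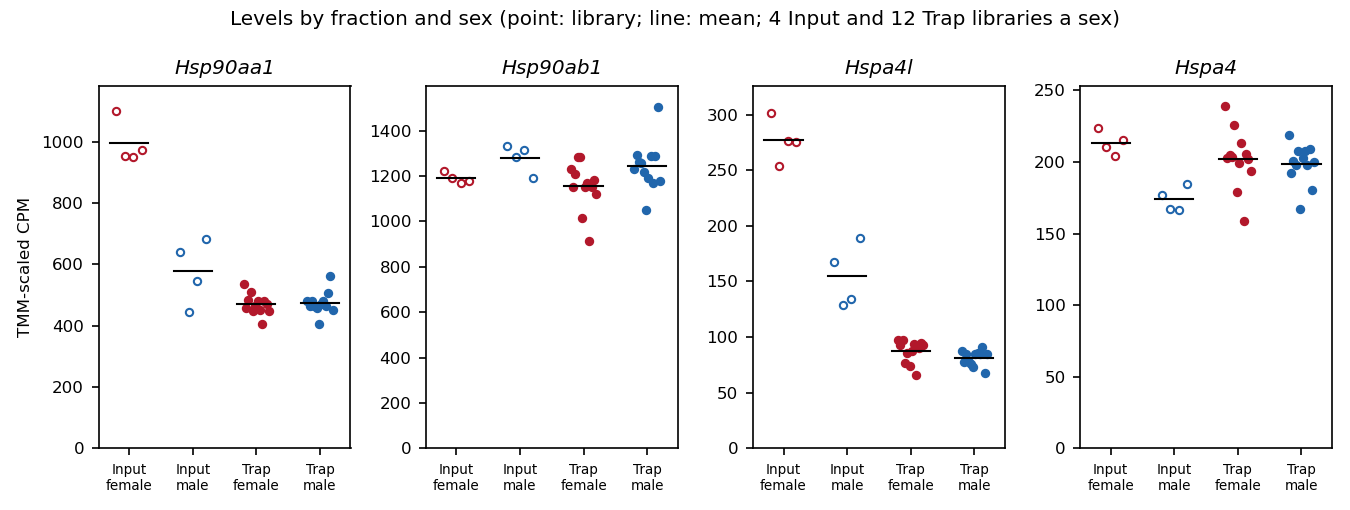
CPM of Hsp90aa1, Hsp90ab1, Hspa4l and Hspa4 in Input and Trap libraries by sex; a point is 1 library and a line the mean. Female Input libraries lie at 950 to 1102 CPM for Hsp90aa1 and male ones at 444 to 683 CPM, with Trap libraries of both sexes at 404 to 562 CPM.

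The difference between Trap and Input was also set against sex, in an interaction added for the same reason. It was called for 2474 of 17101 genes (14.5%, with 9.26% higher and 5.21% lower). Of the members 17 were called, counting Hsp90aa1, 13 higher and 4 lower in males relative to females. The interaction uses the same Input libraries as the comparison of males and females above, so it is not an independent second result. Sex and header set cannot be told apart in those libraries. Hsp90aa1, given as a description, was -1.09 ± 0.061 log2 in females and -0.27 ± 0.063 in males. Hspa4l was at -1.67 and -0.92, Dnajc3 at 1.94 and 2.51, and Hsp90b1 at 1.23 and 1.71, called in 1 direction in both sexes. Dnaja1 was called lower in females (-0.12, adjusted p 0.0195 by edgeR) and higher in males (0.25). Of the rest, Dnajb14 was called lower in females only (-0.41, males 0.15), Dnajc2 higher in males only (0.56, females -0.04) and Dnajc11 and Dnajb2 lower in males only (-0.31 and -0.28, females 0.05 and -0.01). Within females 33 members were higher and 21 lower (beside 41.5% and 42.3% of all genes, 83.7% together), and within males 36 and 23 (beside 41.1% and 41.9%, 83% together). Of the 8 ER lumen members 5 are among the 17, and the Input values of each sex come from 4 libraries.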

How the data were processed

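The authors deposited RSEM estimated counts (expected counts) per Ensembl gene for 32 libraries. Per the submitters' processing notes, FastQC, Trim Galore, STAR, RSEM and GRCm38 were used; the sources used here do not give versions, annotation release or strand. Symbols and GRCm38 positions came from GENCODE M21 (55227 identifiers matched; rows without a symbol held 0.294% of counts). Counts were rounded. The test was edgeR's (4.0.16, R 4.3.3; TMM, filterByExpr, robust quasi-likelihood, 2-sided, Benjamini-Hochberg over all genes tested). Groups were fitted as sex by state in Trap, fraction plus sex and state over all libraries, and state plus sex in Input. DESeq2 1.42.0 and each left-out library were alternatives, and the procedure was tested on simulated data. CPM are TMM-scaled, per kilobase by the exon length of the gene. Values by library are given for the 6 called members with the largest fold each way, a panel of 22 members, and otherwise called or smallest-p members. Members and lists were chosen with earlier results of these data known, and the Input sex comparison and its interaction after values were seen. Promoters came from RefSeq (GRCm38.p6).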

Additional observations from a re-analysis of the deposited data

Results flagged for a closer look

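The 6 Trap libraries of each injury state were checked for 1 library far from the others in 8 members, 32 groups in all, of which 7 had one (gap over range above 0.625). A rate of about 1 in 20 would hold for independent draws, so it cannot be set against this count. The same libraries recur between members, and each group mixes the sexes. The members flagged are also among those with the smallest p in the fracture comparisons of these libraries. Hsph1 in uninjured mice reached 126 CPM in female replicate 1, with the next library at 100 CPM (99.96). Hspa4l stood apart in 3 groups: 85.5 CPM in female replicate 2 at 3 weeks (next 77.3), 65.5 CPM in female replicate 3 at 5 weeks (next 84.7) and 67.5 CPM in male replicate 2 at 7 weeks (next 84.5). Hspa2 was at 82.1 CPM in female replicate 3 at 5 weeks (next 114). Dnaja1 was at 230 CPM (229.56) in female replicate 2 at 5 weeks (next 252), and Dnajc17 at 22.9 CPM in male replicate 2 at 7 weeks (next 14.8).

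The difference between Trap and Input differed between the sexes by the interaction test for 17 members, counting Hsp90aa1, whose value is a description only. Given as male minus female on the log2 scale, it was 0.81 for Hsp90aa1, 0.75 for Hspa4l, 0.64 for Dnajc21, 0.60 for Dnajc2, 0.57 for Dnajc3, 0.56 for Dnajb14, 0.49 for Dnajc1, 0.48 for Hsp90b1, 0.40 for Hspa13, 0.37 for Dnaja1, 0.36 for Dnajb4, 0.27 for Dnajc15 and 0.24 for Dnajb9. It was -0.36 for Dnajc11, -0.33 for Dnajb1, -0.28 for Dnaja4 and -0.27 for Dnajb2. Each of the 8 Input libraries was left out in turn for 12 of these members. Dnajb1 kept its call in 2 fits, Dnaja4 and Dnajb2 in 3 each, and Dnajc21 and Dnajc1 in 7 each. Hspa4l, Dnajc2, Dnajc3, Dnajb14, Hsp90b1 and Dnajc11 kept theirs in all 8. The Input levels of Hsp90aa1 prompted the comparison, so refits of the same libraries give its value no support. Of the exon bases of Dnaja4, 44.1% lie opposite Wdr61. Sex and header set cannot be told apart in the Input libraries behind these values.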

How the results depend on the processing

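In the fracture comparisons of Trap libraries 0 members were called under every alternative run, including without the 2 libraries that stood apart, while the count over all genes at 3 weeks ran from 3 to 135 (17 in the main fit, 135 by DESeq2, 106 without those 2 libraries, 3 to 40 without 1 replicate, 44 with a replicate block). Same-numbered Trap libraries of a sex correlated at a median r of 0.158 over 36 pairs (27 over 0.1, the lowest -0.125), differently numbered ones at -0.0836 over 72 pairs (7 over 0.1), and 15 of 24 libraries correlated best with their own number. Not every pair was over 0.1, so the numbers were not taken as pairs. These values and the set names in the headers still leave a shared set within a sex possible. The standard errors and p-values given for Trap do not account for such a set. A replicate block within sex called 77 genes and 0 members at 3 weeks. For Trap against Input the replicate block gave 53 called members, replicate 1 libraries alone 53, DESeq2 size factors 58 (32 higher, 26 lower), and leaving out 1 Input library 56 to 59. DESeq2 size factors moved the median of all genes by -0.13, and Hsp90ab1 (-0.18), Dnajc10 (-0.15) and Dnajb14 (-0.28) were then called lower. Uncalled differences changed sign with DESeq2 size factors and the DESeq2 test for Hspa4 (-0.0846 and -0.0845), Dnaja1 (-0.0756 in both), Dnajb6 (-0.0502 in both) and Dnajc28 (-0.0050 and -0.0055), and for Hspbap1 with the replicate block (0.020). Without 1 Input library Hspbap1 ran from -0.1353 to 0.033 and Dnajc10 from -0.043 to 0.0086. The Input count at 3 weeks was 1 member, 2 by DESeq2 and 0 to 3 without 1 library, and the count of members whose Trap and Input difference depended on sex was 10 to 17 without 1 library (10 without the male 3-week one). The cause of these shifts was not tested.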
